A study of Drosophila melanogaster with 6 samples.

Results

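The genes described here are 10 Drosophila genes of lipid storage (bmm, Lsd-1, Lsd-2), lipid synthesis (FASN1, ACC, SREBP, Desat1, mdy) and lipid transport (apolpp, Mtp). They were taken by name from the platform annotation, with older aliases brought to current symbols. The list was drawn up with earlier results of these data known, so it was not chosen blind to them. All 10 were measured, of 10843 genes in all, by 13 probe sets, since ACC, mdy and apolpp have 2 each. RNA came from 3 samples of mle/mle larvae and 3 of wild type larvae, all at the third instar, and each was hybridised to 1 Affymetrix array. The mle/mle larvae were homozygous males sorted from heterozygotes of mle over T(2-3)Tb. The wild type larvae were of the strain that the labels write as cancon S, and their sex is not given. The allele of mle, the number of larvae in a sample and the genetic background of the mutant are not given either, so a difference of strain or sex cannot be told apart from the mutation. The gene mle (maleless) encodes an RNA helicase that acts in dosage compensation of the male X, and the title of the series asks how it bears on X and autosomal expression. RNA was taken from whole larvae as far as the labels say, so fewer cells of a type and less RNA per cell cannot be told apart in any value below.

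Insect larvae store fat as triglyceride in lipid droplets, chiefly in the fat body, the organ that joins the roles of liver and adipose tissue. Fatty acids are made from acetyl-CoA, desaturated, joined to glycerol and stored, and perilipins on the droplet surface govern how far lipases reach the store. Fat leaves the fat body and the gut as diacylglycerol on lipophorin, the carrier particle of the haemolymph. Larvae of the last instar fill these stores, which carry the animal through metamorphosis.

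Values are log2 RMA signals, in which 1 unit is a doubling. Array medians lay between 6.89 and 6.92, and any 2 arrays correlated between 0.987 and 0.997 over probe sets. The arrays numbered 2 stood apart. Of the summed squared deviations from the group means over all probe sets, 27.3% came from mle/mle replicate 2 and 25.5% from wild type replicate 2, against 7.59% to 16.9% from each of the other 4. The probe set of mle read 5.34 ± 0.08 in mle/mle and 5.45 ± 0.10 in wild type (SD, n = 3 each), a log2 difference of -0.10 with an adjusted p of 0.9997 by limma. Its mean was above that of only 15.5% of genes, and a change of so dim a probe set may come out compressed. The transcript level thus does not check the genotype. Because the arrays numbered 2 stood apart, each lipid gene below whose call changed without them is also given without replicate 2 of both groups. That fit has 2 arrays per group. Leaving out the most deviant arrays narrows the spread within groups and so favours calls, also where only mle/mle replicate 2 is left out. Calls and adjusted p-values of these fits are therefore descriptive.

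None of the 10 genes passed the test between mle/mle and wild type. Limma, with Benjamini-Hochberg adjustment over all 13966 probe sets, called 0 of the 13 member probe sets (adjusted p = 0.9997 for each), and 0.0573% of all probe sets were called. At an unadjusted p under 0.05 there was 1 member, bmm, which was lower, and 1.35% of all probe sets were lower at that level. The arrays of mle/mle and wild type overlapped in all 13 member probe sets, and were apart in 8.36% of all probe sets. The fitted change was positive for 7 members and negative for 3, with a median of 0.09. Over all genes 53.6% of changes were positive and the median was 0.01. The smallest changes were those of Desat1 and of the brighter ACC probe set, and the largest was that of FASN1, whose 3 mle/mle arrays also disagreed most.

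**Figure D1:**
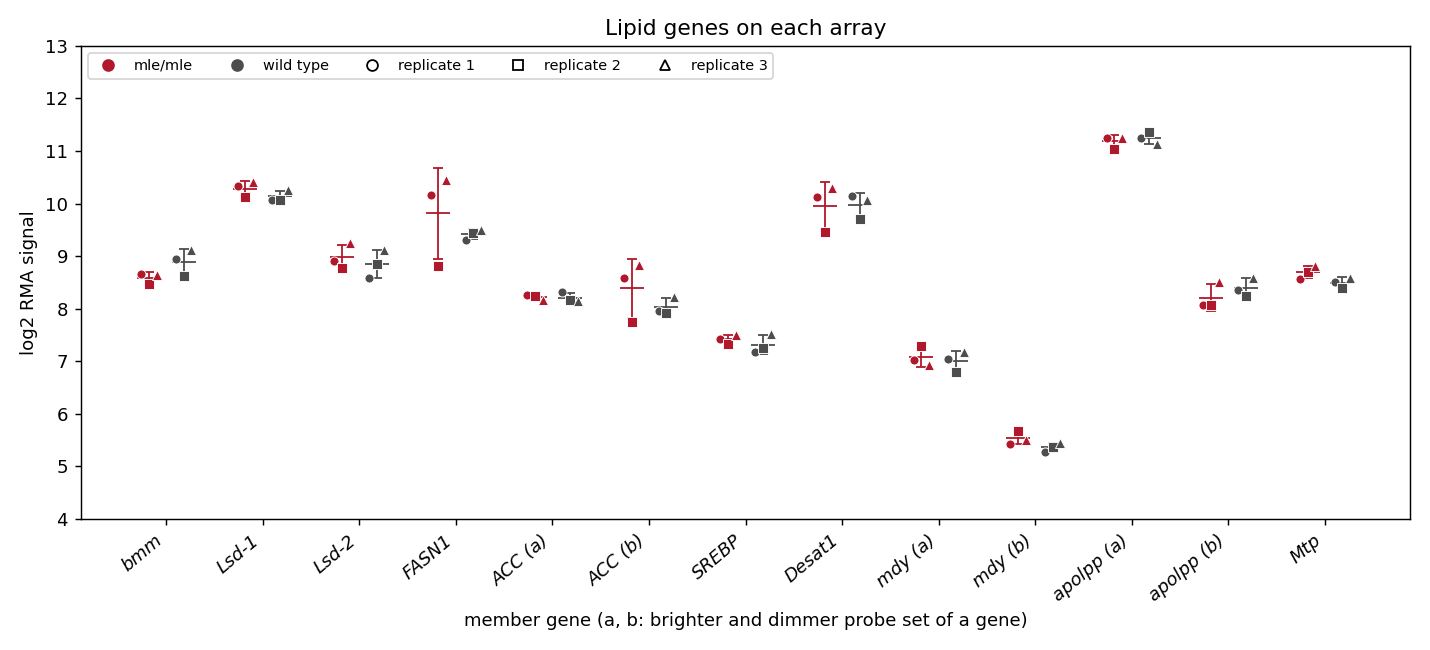
Log2 RMA signal (vertical axis) of the 13 member probe sets on each array, with mle/mle in red on the left and wild type in grey on the right of each pair. Marker shapes give the replicate number, and bars the mean and SD of 3 arrays. The groups overlap in every probe set, and the widest spread is that of FASN1 in mle/mle, from 8.82 to 10.45.

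The storage genes come first. The gene bmm (brummer, 3L) encodes the main triglyceride lipase of the fat body, a relative of the adipose triglyceride lipase of mammals. It read 8.67, 8.46 and 8.64 in mle/mle replicates 1 to 3, against 8.93, 8.62 and 9.12 in wild type replicates 1 to 3. The highest mle/mle array lay just above the lowest wild type array, wild type replicate 2, and below the other two. The means were 8.59 ± 0.11 in mle/mle and 8.89 ± 0.25 in wild type (SD, n = 3 each), a ratio of 0.811. The log2 difference was -0.30 (SE 0.13, 95% interval -0.60 to -0.0047), with an unadjusted p of 0.047 and an adjusted p of 0.9997 by limma. Within same-numbered arrays, mle/mle was lower in 3 of 3 pairs, by -0.27, -0.16 and -0.48. Its difference stayed negative in all 16 alternatives in which it was computed, from -0.44 to -0.19, and never passed the test (adjusted p 0.060 to 0.999996 by limma). It was lowest without wild type replicate 2 and highest without wild type replicate 3. Without replicate 2 of both groups it was -0.37 (adjusted p = 0.060 by limma).

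Lsd-1 (3R) and Lsd-2 (X) encode the perilipins of the fly, which coat lipid droplets. Lsd-1 serves as the docking site at which hormone-driven lipolysis is switched on, and Lsd-2 shields the store from lipases. Lsd-1 read 10.33, 10.13 and 10.40 in mle/mle, against 10.08, 10.07 and 10.26 in wild type. Its difference was 0.15 (SE 0.10, 95% interval -0.07 to 0.37) and it was positive in 3 of 3 pairs, by 0.25, 0.06 and 0.14. Lsd-2 read 8.90, 8.78 and 9.24 in mle/mle, against 8.58, 8.85 and 9.12 in wild type. Its difference of 0.12 (SE 0.16, 95% interval -0.25 to 0.49) was smaller than its spread in both groups (SD 0.24 in mle/mle and 0.27 in wild type), and the pair numbered 2 went the other way, at -0.07. Lsd-2 is the only member on X. Its sign turned to -0.01 without wild type replicate 1 and likewise without mle/mle replicate 3.

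FASN1 (2L) encodes the fatty acid synthase that is expressed widely in the fly, the enzyme that builds the fatty acid chain. It read 10.17, 8.82 and 10.45 in mle/mle replicates 1 to 3, against 9.31, 9.44 and 9.50 in wild type. In mle/mle, replicates 1 and 3 lay above every wild type array, and replicate 2 below every one. The means were 9.81 ± 0.87 in mle/mle and 9.41 ± 0.09 in wild type (SD, n = 3 each). The log2 difference was 0.40 (SE 0.36, 95% interval -0.44 to 1.23), or 1.32 times the wild type signal with an interval of 0.738 to 2.35, so a change of either direction lies within it. The SD of FASN1 in mle/mle was larger than that of 99.8% of genes in that group, and its SD in wild type larger than that of 42.8%. The differences in the 3 pairs were 0.86, -0.62 and 0.95.

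The FASN1 comparison turned on mle/mle replicate 2. Without that array the difference was 0.90 and passed the test (SE 0.11, adjusted p = 0.015 by limma). In that fit 0.859% of all probe sets were called higher. Without replicate 2 of both groups the difference was 0.91 (SE 0.11, adjusted p = 0.0031 by limma), and 2.24% of all probe sets were called higher there. In the 14 other alternatives the adjusted p of FASN1 did not pass, and over all 16 it lay between 0.0031 and 0.999996. Without mle/mle replicate 3 the difference was 0.08, and without mle/mle replicate 1 it was 0.22. In the PLIER table, a second summary of the same arrays deposited by the authors, the difference was 0.41 (adjusted p = 0.999996 by limma). Column names there carry 2 array codes, and the difference was 0.17 over the 4 arrays of the first code and 0.91 over the 2 arrays of the second. In the first code the mle/mle arrays read 10.07 and 8.76, against 9.25 and 9.26 in wild type. In the second, mle/mle read 10.30 and wild type 9.39. The smaller difference of the first code thus rests on its 1 low mle/mle array. In each group the FASN1 values of these arrays follow the order of replicates 1 to 3. For FASN1 the split by code may therefore only repeat the pair differences, and it is no separate result.

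ACC (2R) encodes acetyl-CoA carboxylase, which makes the malonyl-CoA that fatty acid synthase uses. Its 2 probe sets have nearly the same mean signal and disagree. Probe set 146782_at, the brighter by a small margin, read 8.25, 8.25 and 8.16 in mle/mle, against 8.31, 8.16 and 8.15 in wild type, a difference of 0.01 (SE 0.08, 95% interval -0.16 to 0.19). Probe set 152407_at read 8.58, 7.75 and 8.82 in mle/mle, against 7.95, 7.92 and 8.22 in wild type, a difference of 0.36 (SE 0.25, 95% interval -0.22 to 0.93). The second probe set has the array pattern of FASN1, high in mle/mle replicates 1 and 3 and low in replicate 2, while the first is flat. Over the 6 arrays the Pearson correlation with FASN1 was 0.97 for 152407_at. As with FASN1, the difference of 152407_at was larger without replicate 2 of both groups, at 0.62 (SE 0.11, adjusted p = 0.025 by limma), while that of 146782_at there was -0.03 (adjusted p = 0.96). Without mle/mle replicate 2 alone that of 152407_at was 0.67 (adjusted p = 0.057). Which transcripts of ACC each probe set matches is not given in the sources used here.

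SREBP (3L) encodes the membrane-bound transcription factor that, once cleaved, turns on fatty acid synthesis genes, FASN1 and ACC among its known targets in flies. It read 7.43, 7.33 and 7.50 in mle/mle, against 7.17, 7.25 and 7.51 in wild type. Its difference was 0.11 (SE 0.10, 95% interval -0.13 to 0.34), and the range of mle/mle lay inside that of wild type. The transcript level says nothing of how much of the protein is cleaved.

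Desat1 (3R) encodes the delta-9 desaturase that puts the first double bond into fatty acids. It read 10.12, 9.46 and 10.30 in mle/mle, against 10.14, 9.71 and 10.06 in wild type. The array numbered 2 was the lowest of both groups, and the difference was -0.01 (SE 0.21, 95% interval -0.50 to 0.48). Its SD in mle/mle, 0.44, was larger than that of 98.0% of genes in that group. Without mle/mle replicate 2 the difference was 0.24 (adjusted p = 0.86 by limma).

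The last enzyme of synthesis is that of mdy (midway, 2L), a diacylglycerol acyltransferase that makes triglyceride from diacylglycerol. The brighter probe set of mdy, 154661_at, read 7.03, 7.28 and 6.92 in mle/mle, against 7.04, 6.79 and 7.17 in wild type, a difference of 0.08 (SE 0.13, 95% interval -0.21 to 0.36). Here mle/mle replicate 2 was the highest array and wild type replicate 2 the lowest, and the 3 pairs gave -0.01, 0.49 and -0.25. Its other probe set, 146381_at, is among the dimmest 40% of all probe sets. It read 5.43, 5.67 and 5.51 in mle/mle, against 5.28, 5.37 and 5.45 in wild type, a difference of 0.17 (SE 0.09) with positive values in 3 of 3 pairs. Changes of such dim probe sets come out compressed in RMA, and this value may understate a change. In the PLIER table, however, the difference of 146381_at was -0.0078 (SE 0.14), so that summary of the same arrays held no rise.

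**Figure D2:**
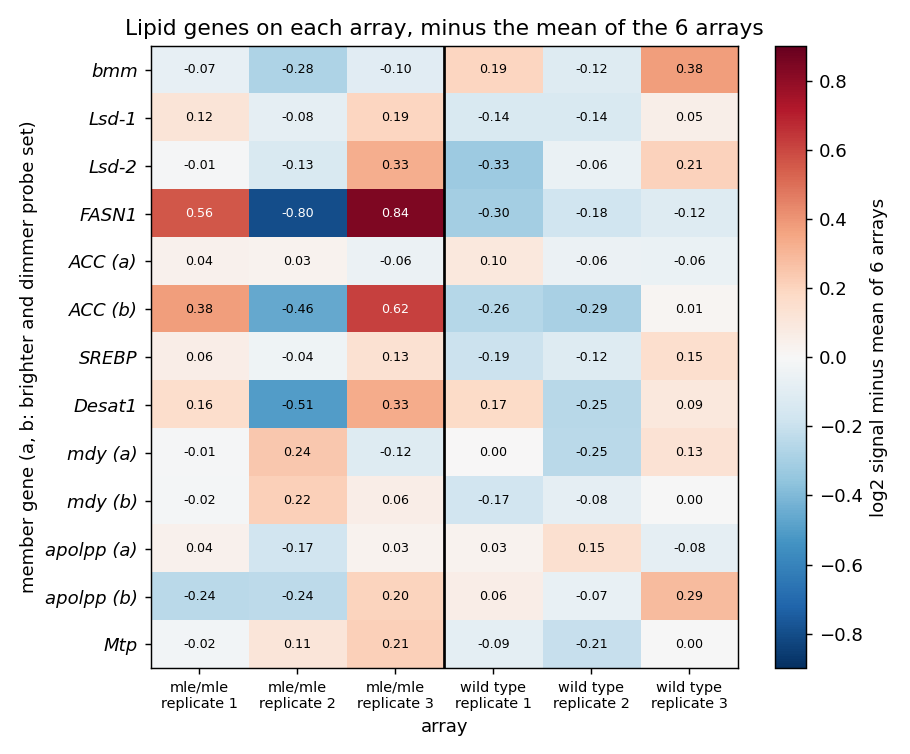
Log2 signal of each member probe set (rows) on each array (columns, mle/mle left of the line, wild type right of it) minus the mean of its 6 arrays, in colour and figures. FASN1 runs from -0.80 in mle/mle replicate 2 to 0.84 in mle/mle replicate 3, and the dimmer ACC probe set from -0.46 to 0.62 on the same arrays.

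Transport was represented by apolpp and Mtp. The gene apolpp (chromosome 4) encodes apolipophorin, the protein core of the lipophorin particle, and Mtp (2L) encodes the microsomal transfer protein that loads it with lipid. The brighter apolpp probe set, 142356_at, read 11.25, 11.05 and 11.25 in mle/mle, against 11.25, 11.36 and 11.14 in wild type, a difference of -0.07 (SE 0.09, 95% interval -0.28 to 0.14). The dimmer one, 151538_s_at, read 8.06, 8.06 and 8.50 in mle/mle, against 8.36, 8.24 and 8.59 in wild type, a difference of -0.19 (SE 0.14, 95% interval -0.51 to 0.14). The dimmer probe set was lower in 3 of 3 pairs, by -0.30, -0.17 and -0.09, while the brighter one gave 0.0040, -0.32 and 0.11. A probe set whose name ends in s_at can match several transcripts.

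Mtp read 8.57, 8.70 and 8.81 in mle/mle, against 8.51, 8.39 and 8.59 in wild type. The lowest mle/mle array lay just below the highest wild type array. The means were 8.69 ± 0.12 in mle/mle and 8.49 ± 0.10 in wild type (SD, n = 3 each), a log2 difference of 0.20 (SE 0.09, 95% interval -0.0096 to 0.41), or 1.15 times. Its unadjusted p was 0.059 by limma, and without replicate 2 of both groups its difference was 0.14. Mtp was higher in mle/mle in 3 of 3 pairs, by 0.06, 0.32 and 0.22, and positive in all 16 alternatives, from 0.02 to 0.26. The lowest value came from the first array code of the PLIER table, where the difference over 4 arrays was 0.02, against 0.37 over the 2 arrays of the second code. By their brighter probe sets, 3 of 10 members (bmm, Lsd-1 and Mtp) kept 1 sign in all 3 pairs, and so did 27.6% of all genes.

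**Figure D3:**
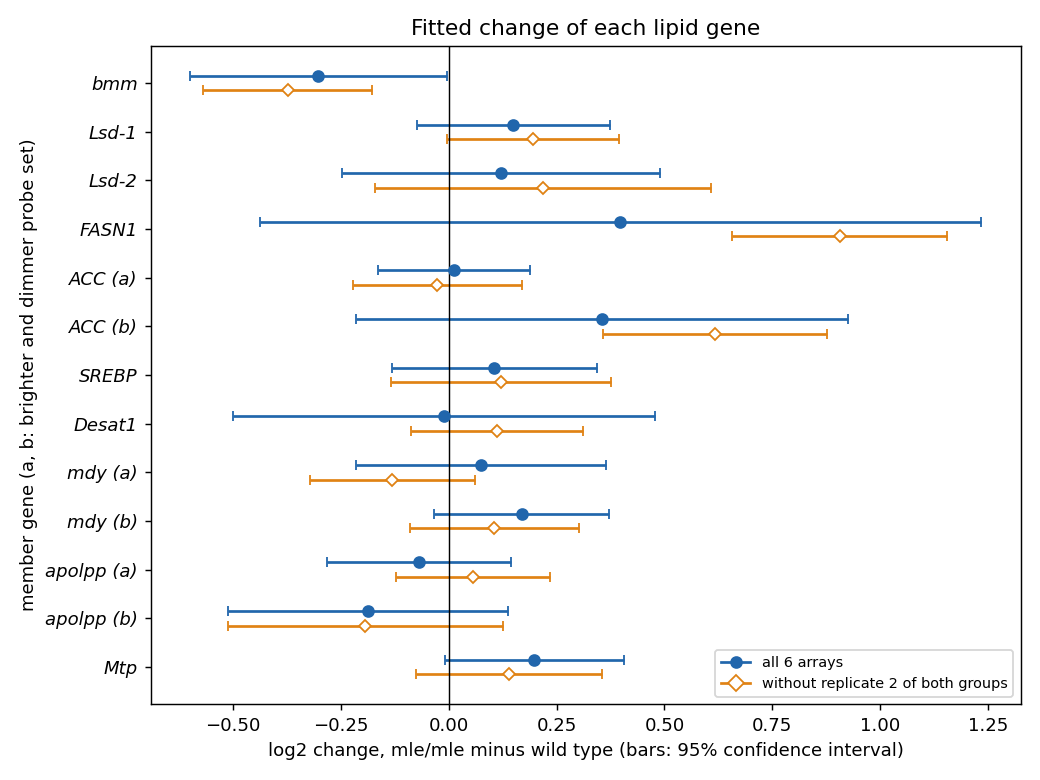
Fitted log2 change of each member probe set, mle/mle minus wild type (horizontal axis), with its 95% confidence interval, from all 6 arrays (filled circles) and without replicate 2 of both groups (open diamonds). FASN1 lies at 0.40 with all arrays and at 0.91 without that pair, the dimmer ACC probe set at 0.36 and 0.62, and bmm at -0.30 and -0.37.

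Several member probe sets varied together across arrays. The pairs named first are among the most strongly correlated of all member pairs. The following Pearson correlations over the 6 arrays describe these values only, since all probe sets share the same arrays and normalization. The dimmer ACC probe set correlated with FASN1 at 0.97, with Lsd-1 at 0.94 and with Desat1 at 0.80. Lsd-2 and SREBP correlated at 0.91. The brighter probe sets of mdy and apolpp ran opposite, at -0.96. Taken on deviations from the group means, these values were 0.97, 0.93, 0.91, 0.91 and -0.97, so they come mainly from variation among arrays of the same group. The brighter ACC probe set did not share the pattern of the dimmer one. Over the 6 arrays it correlated with FASN1 at -0.33, with Lsd-1 at -0.38, with Desat1 at -0.04 and with the dimmer probe set at -0.32.

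Among the 6900 genes above the dimmest 40% of probe sets, the array patterns most like that of FASN1 were those of Idgf6 (Pearson r = 0.997 over 6 arrays), CG9757 (0.991) and CG8051 (0.988). Idgf6, a secreted chitinase-like growth factor gene, read 10.07, 9.26 and 10.15 in mle/mle, against 9.52, 9.60 and 9.64 in wild type. Like FASN1, it was above every wild type array in mle/mle replicates 1 and 3 and below every one in replicate 2. The patterns most like that of bmm were those of CG14300 (0.984), CG15044 (0.977) and Lnpk (0.970). CG15044 read 8.59, 8.54 and 8.64 in mle/mle, against 8.97, 8.62 and 9.17 in wild type. Its wild type replicate 2 was the array nearest to mle/mle, as for bmm. These genes were picked from 6900 for their likeness over only 6 arrays. The array order that they share with FASN1 or bmm follows from that choice and is no separate result.

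Of 108 other genes in 6 lists of lipid metabolism, 90 were measured and limma called 0 over all probe sets, where 0.0573% of all probe sets were called. In mle/mle, 9 were higher with an unadjusted p under 0.05 and 1 was lower, while 2.98% of all probe sets were higher and 1.35% lower at that level. The groups were apart in 11 higher genes and 1 lower gene, against 5.42% and 2.94% of all probe sets. Positive changes were seen in 62 and negative ones in 28. Without replicate 2 of both groups, limma called 8 higher (Acbp6, Acbp4, Acbp2, bgm, Gpdh1, Acox57D-p, Echs1 and sug) and 1 lower (CG6295). In that fit 2.24% of all probe sets were called higher and 1.0% lower. Acbp2, Gpdh1 and Echs1, named after their values were seen, differed by 0.34, 0.33 and 0.32 with all arrays, and by 0.61, 0.64 and 0.45 in that fit (adjusted p = 0.0051, 0.0031 and 0.021 by limma).

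Lipid transport and uptake held the 2 largest changes of the 6 lists. Its 20 measured genes had a median change of 0.07, and an unadjusted p under 0.05 was found for 3 higher and 0 lower genes. The acyl-CoA binding protein gene Acbp6 (3L), of a family that carries activated fatty acids inside cells, read 11.61, 10.48 and 11.62 in mle/mle, against 10.004, 9.98 and 10.14 in wild type. Every mle/mle array was above every wild type array, with replicate 2 the lowest of mle/mle. The difference was 1.20 (SE 0.28, 95% interval 0.56 to 1.84), or 2.30 times, with an unadjusted p of 0.0024 and an adjusted p of 0.38 by limma. Without replicate 2 of both groups it was 1.55 (adjusted p = 6.2e-05 by limma), and in the PLIER table with all arrays 1.38 (adjusted p = 0.55). Its relative Acbp4, named after its values were seen, read 11.53, 10.79 and 11.36 in mle/mle, against 10.37, 10.86 and 10.33 in wild type, a difference of 0.71 (SE 0.21, adjusted p = 0.68 by limma). In Acbp4, mle/mle replicate 2 lay just below wild type replicate 2, and without that pair the difference was 1.10 (adjusted p = 0.00029). The name of the Acbp4 probe set ends in f_at, and whether it also matches relatives such as Acbp6 was not tested. Acbp4 may therefore not be a separate change. Of other relatives, also chosen after their values were seen, Acbp2 differed by 0.34, Acbp1 by 0.13 and Acbp5 by -0.08 with all arrays. Without replicate 2 of both groups these differences were 0.61, -0.12 and 0.14. The lowest change of the list was that of Npc2b, a sterol-binding protein gene, at -0.21 (adjusted p = 0.9997). The lipophorin receptor genes LpR1 and LpR2 and the lipid transfer particle gene Apoltp, also chosen after their values were seen, differed by 0.06, -0.01 and 0.04.

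Fatty acid and triglyceride synthesis had 19 measured genes, a median change of 0.07, and 2 higher and 0 lower genes with an unadjusted p under 0.05. The highest was bgm (bubblegum), an acyl-CoA synthetase of very long chain fatty acids, which read 9.07, 8.46 and 9.23 in mle/mle, against 8.20, 8.17 and 8.39 in wild type. No mle/mle array of bgm overlapped wild type, and the difference was 0.67 (SE 0.18, adjusted p = 0.59 by limma), or 0.86 without replicate 2 of both groups (adjusted p = 0.0021). ATPCL, the ATP citrate lyase that supplies acetyl-CoA for the reactions of ACC and FASN1, differed by 0.31 (SE 0.11, adjusted p = 0.87), and the lowest of the list was Lpin, a phosphatidate phosphatase, at -0.13 (adjusted p = 0.9997). ATPCL was named after its values were seen.

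**Figure D4:**
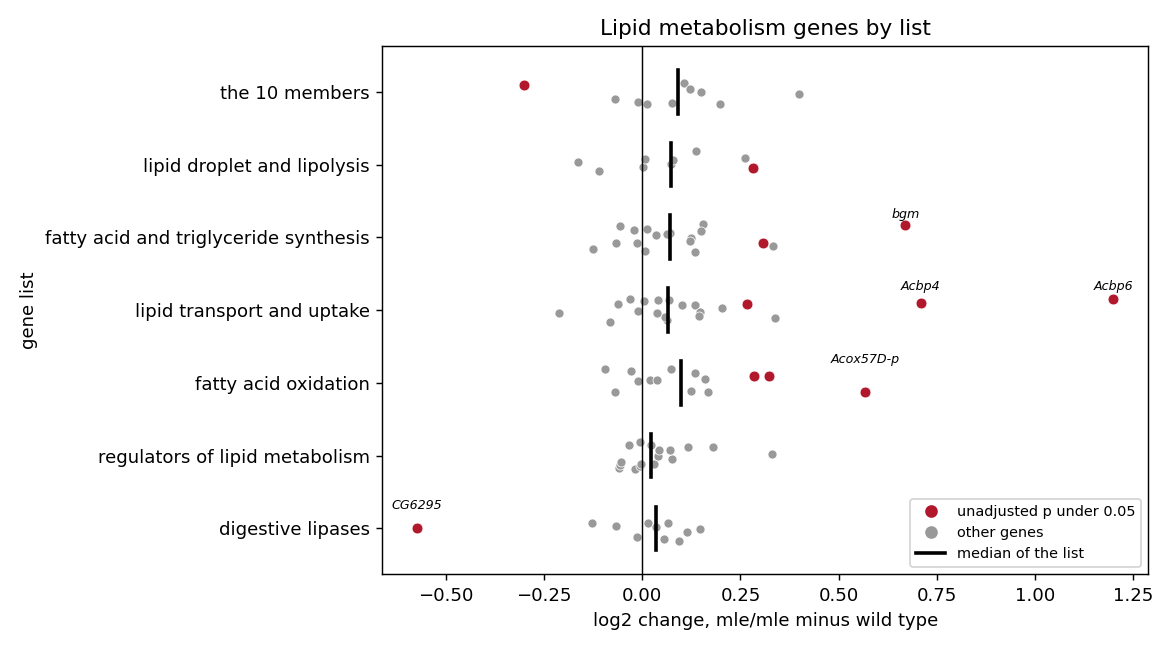
Log2 change, mle/mle minus wild type (horizontal axis), of each measured gene in the 10 members and in 6 lists of lipid metabolism (vertical axis), with black lines at list medians and red points at an unadjusted p under 0.05. List medians lie between 0.02 and 0.10, Acbp6 is the point farthest to the right at 1.20, and no point passed the adjusted test.

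Fatty acid oxidation had 14 measured genes, a median of 0.10, and 3 higher and 0 lower genes with an unadjusted p under 0.05. Its highest was Acox57D-p, a peroxisomal acyl-CoA oxidase, at 0.57 (SE 0.13, adjusted p = 0.32 by limma), or 0.68 without replicate 2 of both groups (adjusted p = 0.0056). Acox57D-p read 6.51, 6.03 and 6.35 in mle/mle, against 5.84, 5.68 and 5.68 in wild type, without overlap, from a probe set among the dimmest 40%. Its lowest was whd (withered), the carnitine palmitoyltransferase that lets fatty acids into mitochondria, at -0.09 (adjusted p = 0.9997).

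Other genes of lipid droplets and lipolysis, 9 measured with a median of 0.07, held 1 higher gene at an unadjusted p under 0.05. This was Jabba, a histone-binding lipid droplet protein, which read 8.59, 8.57 and 8.66 in mle/mle, against 8.34, 8.21 and 8.42 in wild type. The groups of Jabba did not overlap, and the difference was 0.28 (SE 0.08, adjusted p = 0.63 by limma). The lowest was Seipin, of droplet assembly, at -0.16 (adjusted p = 0.9997). Regulators of lipid metabolism, 17 measured with a median of 0.02, held none at an unadjusted p under 0.05. The highest was sug (sugarbabe), a sugar-responsive transcription factor gene, which read 9.54, 8.80 and 9.71 in mle/mle, against 8.94, 9.05 and 9.07 in wild type. As in FASN1, replicates 1 and 3 of mle/mle lay above every wild type array of sug and replicate 2 below every one. The difference of sug was 0.33 (SE 0.21, adjusted p = 0.9997 by limma), and 0.62 without replicate 2 of both groups (adjusted p = 0.0082). The lowest was upd2, a leptin-like signal of the fat body, at -0.06. Digestive lipases, 11 measured with a median of 0.04, held 1 lower gene, the predicted lipase gene CG6295. It read 8.57, 8.20 and 8.57 in mle/mle, against 9.06, 9.06 and 8.94 in wild type, a difference of -0.57 (SE 0.11, adjusted p = 0.22 by limma). The groups of CG6295 did not overlap, and without replicate 2 of both groups the difference was -0.43 (adjusted p = 0.023). The highest of these was CG6283, at 0.15 (adjusted p = 0.9997).

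Marker genes of several tissues also differed between arrays, and their part in the lipid results was not tested. The 3 measured fat body markers of 6 listed (Lsp2, Fbp1 and Fbp2) had array means of 12.88 to 13.21 in mle/mle and 12.75 to 13.04 in wild type, with positive changes of 0.07, 0.27 and 0.15. Fbp2, like FASN1, was lowest in mle/mle replicate 2, at 11.54, against 12.41 and 12.60 in mle/mle replicates 1 and 3. The other fat body markers were not. In mle/mle replicates 1 to 3, Fbp1 read 12.92, 13.18 and 13.05, and Lsp2 read 13.92, 13.93 and 13.97. The 4 measured oenocyte markers of 5 lay at 7.76 to 7.86 in mle/mle and 7.79 to 7.97 in wild type. Hemocyte markers, 5 of 6 measured, lay at 6.39 to 6.74 in mle/mle and 6.24 to 6.44 in wild type, with positive changes in all 5. Midgut markers, 5 of 6, had array means of 10.60 to 10.75 in mle/mle and 10.39 to 10.59 in wild type, but went both ways. Amy-d, an amylase gene and the only called marker, rose by 1.30 (adjusted p = 0.0076 by limma), Mal-A1 and alphaTry differed by 0.48 and 0.28, and betaTry and Jon25Bi by -0.58 and -0.40. The 6 salivary gland glue genes, which mark the age of late larvae, lay at 12.27 to 12.56 in mle/mle and 12.65 to 12.71 in wild type, nearest to wild type in mle/mle replicate 2, with negative changes in all 6. No marker could be called absent, since the tables hold no detection call.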

How the data were processed

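The authors deposited log2 signals per probe set, which the submitters' processing notes ascribe to RMA, with settings and chip definition not given in the sources used here. Their other table is, per the file headers, of log2 PLIER values (offset 16). Its column names give no replicate number. The group of each array was inferred from their endings, with -c read as control (wild type) and -e as experiment (mle/mle). After removal of 44 array controls from 14010 probe sets, 13966 entered every test, 12442 of them annotated with 1 symbol, 327 with several and 1197 with none. Current symbols and chromosome arms came from the RefSeq gene table for assembly Release 6 plus ISO1 MT, matched by Entrez ID for 12393 and by symbol for 4. Coordinates are left out, as no build is named for the arrays. A gene was represented by its probe set of highest mean. The two-sided test was limma (3.58.1, in R 4.3.3; lmFit, then eBayes), adjusted over all probe sets, with calls at an adjusted p under 0.05, and its script was tested on simulated data. Same-numbered arrays deviated together from their group means (r = 0.17, 0.28 and 0.52). Differences within same-numbered arrays are therefore given, and a replicate block was fitted as an alternative, while the main test was unpaired. What a number stands for is not stated. The arrays are labelled biological replicates. P-values set the difference between groups against the spread between these samples, whose number limits the precision. Named were all members, mle, the called genes and the highest and lowest change of each lipid list, and the 3 genes most like FASN1 and bmm over the arrays. Members, lists and alternatives were chosen with earlier results of these data known. Plots used matplotlib 3.10.9 under Python 3.11.15.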

Additional observations from a re-analysis of the deposited data

How the results depend on the processing

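Besides the reported setting, 16 alternatives were run, and the choice of the dimmer probe set of ACC, mdy and apolpp was added after the data were seen. Limma called 0 of the 10 genes with all arrays and 0 to 1 when a single array was left out (1, FASN1, without mle/mle replicate 2). It called 1, FASN1, without replicate 2 of both groups and 0 in every other alternative. The dimmer probe sets were counted with all arrays only, where 0 were called. Without replicate 2 of both groups the dimmer ACC probe set also passed, at 0.62 (adjusted p = 0.025 by limma). The median change of the members, 0.09 as reported, was positive throughout but moved from 0.03 without wild type replicate 2 to 0.18 without wild type replicate 3; it was 0.17 without mle/mle replicate 2 and 0.14 with the dimmer probe sets. Its SD between arrays of a group was 0.12. The replicate block called no member and changed no call among them, with bmm at -0.30 (adjusted p = 0.41 by limma) and FASN1 at 0.40 (adjusted p = 0.91). The signs of bmm, Lsd-1, FASN1, SREBP and Mtp held in all 16. Others turned, all at values that did not pass. ACC was -0.032 in the PLIER table with or without the array code as a block, -0.11 within the code of 4 arrays, -0.0019 after quantile normalization, -0.0076 after centring and -0.026 without replicate 2 of both groups. Desat1 was 0.078 in the PLIER table with or without that block. Without replicate 2 of both groups Desat1 was 0.11, mdy -0.13 and apolpp 0.057. With single arrays left out, the ranges were -0.013 to 0.26 for Lsd-2, -0.015 to 0.064 for ACC, -0.18 to 0.24 for Desat1, -0.029 to 0.16 for mdy and -0.12 to 0.00013 for apolpp. The cause was not tested. With 3 arrays per group, only changes that are large against the spread can pass, and the interval of FASN1, -0.44 to 1.23, shows how little its value is fixed.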
